A study of Mus musculus with 2 samples.

Results

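Cell cycle genes were followed by phase in CD8 T cells of the lamina propria of the colon, in mice with transfer colitis. The 35 genes were taken by name and were all among the 12798 genes measured. They comprise 10 S-phase members (Pcna, Mcm2, Mcm3, Mcm4, Mcm5, Mcm6, Mcm7, Tyms, Rrm2 and Tk1) and 18 mitotic members (Mki67, Top2a, Ccna2, Ccnb1, Ccnb2, Cdk1, Birc5, Ube2c, Cdc20, Aurkb, Nusap1, Cdca8, Cdca3, Cenpf, Cenpa, Tpx2, Smc2 and Smc4). The remaining 7, called the other members here, are Stmn1, Tubb5, Hmgb2, Tuba1b, H2afz, Lmnb1 and Cdkn2c. Of these, Tubb5, Hmgb2, Tuba1b, H2afz and Lmnb1 are tubulin, chromatin and lamina genes that resting cells also express. Stmn1 encodes a tubulin-binding protein, and Cdkn2c encodes an inhibitor of the cycle. The hosts were Rag1 knockout mice, which make no T or B cells of their own but keep innate cells. All of them received wildtype naive CD4+CD45RBhighCD25- T cells, the population that drives colitis in this model. The same hosts were also given splenic TCRb+CD8b+CD4- T cells, whose donors were Bcl6fl/flCd8aCre in one group and Bcl6fl/fl in the other. In such donors loxP sites flank part of Bcl6, a transcriptional repressor, and Cd8aCre, which drives Cre from Cd8a regulatory sequence, is carried by the first genotype alone. Mice were 8-12 weeks old at transfer and the cells were taken 6-10 weeks afterwards. The groups are named Cren and Crep in the annotation and were read as Cre-negative and Cre-positive, which no source spells out. Each has 4 hashtags, antibody labels that mark the cells of one source within a pooled library, and the hashtag served as the replicate.

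A dividing cell copies its DNA in S phase and separates the copies in mitosis. S-phase genes such as the Mcm helicase subunits are classically driven by E2F factors, which act once cyclin D and its kinases inactivate the retinoblastoma proteins. Mitotic genes are switched on later, by complexes that bind CHR elements and by NF-Y, which binds CCAAT boxes. Newly activated CD8 T cells divide rapidly, and long-lived memory and resident T cells divide seldom.

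The promoters of the members were searched for these motifs. RefSeq promoters (GRCm38.p6, the build of the deposited data; windows of 300 bases, 250 before and 50 after a transcript start) were held for 27 of the 35 members. Mcm4, Ccna2, Aurkb, Tpx2, Smc4, Stmn1, H2afz and Lmnb1 had no entry. The windows were searched on both strands, overlapping matches counted, for E2F motifs (TTTCCCGC, TTTCGCGC, TTTGCCGC or TTTGGCGC), CHR motifs (TTTGAA or TTCGAA) and CCAAT. An E2F motif lay in 4 of the 10 windows of 9 S-phase members (40%), in 1 of the 14 windows of mitotic members and in 2.27% of all 32851 windows. Pcna, Mcm2, Tyms, Rrm2 and Tk1 had none. A CHR motif and a CCAAT box lay together in 11 of the 14 mitotic windows (78.6%), in 2 of the 10 S-phase windows and in 7.53% of all windows. The exceptions among the mitotic members were Birc5, Ccnb1 and Nusap1, and Ccnb1 held 2 CCAAT boxes without a CHR motif. CCAAT alone did not set the classes apart: it lay in 8 of the 10 S-phase windows (80%), in 12 of the 14 mitotic windows (85.7%) and in 37.4% of all windows. The S-phase pair Mcm6 and Pcna and the mitotic pair Cenpa and Smc2 are printed because they carry the most UMIs of their class among the members with a window. Ccnb2 and Cdkn2c were added after their values were seen, since they carry the largest differences between the groups. Capitals mark every match to a searched motif on either strand, and each line runs 5′ to 3′ on the strand of the gene.
Mcm6, S-phase, chr1:128359656-128359955, minus strand: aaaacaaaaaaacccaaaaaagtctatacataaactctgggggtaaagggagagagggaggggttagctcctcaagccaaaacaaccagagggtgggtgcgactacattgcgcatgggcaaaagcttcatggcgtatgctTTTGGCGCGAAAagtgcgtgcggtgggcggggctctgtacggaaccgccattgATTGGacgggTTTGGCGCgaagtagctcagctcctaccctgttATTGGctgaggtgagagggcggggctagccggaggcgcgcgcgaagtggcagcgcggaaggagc
Pcna, S-phase, chr2:132253131-132253430, minus strand: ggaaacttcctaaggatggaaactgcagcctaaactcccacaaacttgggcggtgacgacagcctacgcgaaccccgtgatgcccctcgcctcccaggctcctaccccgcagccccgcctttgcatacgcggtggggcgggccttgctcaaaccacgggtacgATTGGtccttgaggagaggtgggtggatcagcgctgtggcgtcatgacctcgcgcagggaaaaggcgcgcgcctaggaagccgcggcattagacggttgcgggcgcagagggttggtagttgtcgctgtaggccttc
Cenpa, mitotic, chr5:30666636-30666935, plus strand: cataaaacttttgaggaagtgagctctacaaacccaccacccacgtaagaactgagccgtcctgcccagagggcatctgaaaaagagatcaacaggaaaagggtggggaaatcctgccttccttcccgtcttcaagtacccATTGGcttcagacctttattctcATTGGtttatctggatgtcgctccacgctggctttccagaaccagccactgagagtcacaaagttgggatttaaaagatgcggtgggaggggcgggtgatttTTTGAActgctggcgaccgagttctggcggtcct
Smc2, mitotic, chr4:52438971-52439270, plus strand: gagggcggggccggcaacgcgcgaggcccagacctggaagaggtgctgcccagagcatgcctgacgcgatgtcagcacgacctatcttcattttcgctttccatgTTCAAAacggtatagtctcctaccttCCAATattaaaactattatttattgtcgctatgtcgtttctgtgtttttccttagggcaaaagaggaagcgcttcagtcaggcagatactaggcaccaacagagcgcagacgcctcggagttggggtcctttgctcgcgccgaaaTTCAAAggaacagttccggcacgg
Ccnb2, mitotic, chr9:70421505-70421804, minus strand: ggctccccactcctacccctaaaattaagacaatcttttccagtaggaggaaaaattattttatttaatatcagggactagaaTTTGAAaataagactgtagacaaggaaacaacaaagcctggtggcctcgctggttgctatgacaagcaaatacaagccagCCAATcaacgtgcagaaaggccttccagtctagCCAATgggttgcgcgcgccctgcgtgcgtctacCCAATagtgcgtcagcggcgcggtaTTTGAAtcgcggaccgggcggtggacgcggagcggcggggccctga
Cdkn2c start 1, other member, chr4:109665323-109665622, minus strand: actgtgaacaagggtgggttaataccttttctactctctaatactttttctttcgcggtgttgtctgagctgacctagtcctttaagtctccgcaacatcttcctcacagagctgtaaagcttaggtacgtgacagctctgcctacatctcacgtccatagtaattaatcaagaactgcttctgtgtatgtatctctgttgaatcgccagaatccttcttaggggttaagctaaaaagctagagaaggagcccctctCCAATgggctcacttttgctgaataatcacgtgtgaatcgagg
Cdkn2c start 2, other member, chr4:109666707-109667006, minus strand: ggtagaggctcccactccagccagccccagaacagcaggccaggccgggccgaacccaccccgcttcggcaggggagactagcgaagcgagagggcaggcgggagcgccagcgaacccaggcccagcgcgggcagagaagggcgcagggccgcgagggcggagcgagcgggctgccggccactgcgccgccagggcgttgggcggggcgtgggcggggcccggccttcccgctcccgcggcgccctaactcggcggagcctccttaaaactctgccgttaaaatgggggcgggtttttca

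In these letters Mcm6 holds 3 E2F matches and no CHR motif, and Pcna holds a single CCAAT box. Cenpa holds 1 CHR motif close to its start and 2 CCAAT boxes, and Ccnb2 holds 2 CHR motifs and 3 CCAAT boxes. The 2 start windows of Cdkn2c hold neither an E2F nor a CHR motif, and only the first has a CCAAT box. A match is a description of the letters and not a measured binding site.

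The gene expression library held 8562 cells and 25614763 UMIs, with 900 to 1305 cells and 2635241 to 4201265 UMIs per hashtag. A UMI of Cd3e was found in 92.6% to 95.4% of the cells of a hashtag, and one of Cd8a in 70.4% to 87.4%. Bcl6 was higher in the hashtags named Crep, at 29.4 ± 3.45 CPM against 17.6 ± 2.2 CPM (SD, n = 4 each). The counted ends are 5′ and the position of the deleted stretch is not given in the sources used here, so Bcl6 does not check the labels. The median mitochondrial share of UMIs per cell was 0.67% to 0.805% in Cren and 0.615% to 0.65% in Crep, without overlap. The summed level of 6 CD8 T cell markers was 5246 to 6087 CPM in Cren and 6190 to 6926 CPM in Crep. This marker sum and those that follow are scaled to the plain UMI total of the hashtag. The 5 CD4 T cell markers summed to 29.5 to 79.1 CPM and 19.0 to 29.8 CPM, the 6 myeloid markers to 171 to 238 CPM and 139 to 206 CPM, and the 4 gamma-delta T cell markers to 70.5 to 166 CPM and 47.4 to 129.9 CPM. The CD4, myeloid and gamma-delta sums overlap between the groups, and the CD8 sums and mitochondrial shares do not. These values are over all cells of a hashtag, and their part in the results was not tested. Fewer cells of a type and less RNA per cell cannot be told apart in sums over a hashtag.

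The first question was whether any cell cycle gene differed between the groups over all cells. Of the 29 members tested, 1 was called. Cdkn2c, which encodes the p18 inhibitor of the cyclin D kinases, rose in Crep. No S-phase member (0 of 10) and no mitotic member (0 of 12) passed, with edgeR, DESeq2 or limma-voom. Counts were summed per hashtag and tested with edgeR's quasi-likelihood test at a Benjamini-Hochberg adjusted p under 0.05 over all 9653 genes tested, of which 0.611% were called (33 higher and 26 lower in Crep). Levels are in CPM, UMIs scaled to 1000000 of the hashtag's TMM-adjusted total, and fold changes are log2 differences, Crep minus Cren. The 6 mitotic members Ccna2, Ccnb1, Cdc20, Nusap1, Cdca3 and Cenpf, with 31 to 70 UMIs each in the whole data set, were under the filter on low counts and were not tested. At an unadjusted p under 0.05 there were 0 S-phase members, 2 mitotic members and 1 other member, against 1076 of all genes tested. The median log2 difference was -0.03 over the S-phase members, -0.14 over the tested mitotic members, -0.05 over the other members and -0.0006 over all genes.

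**Figure D1:**
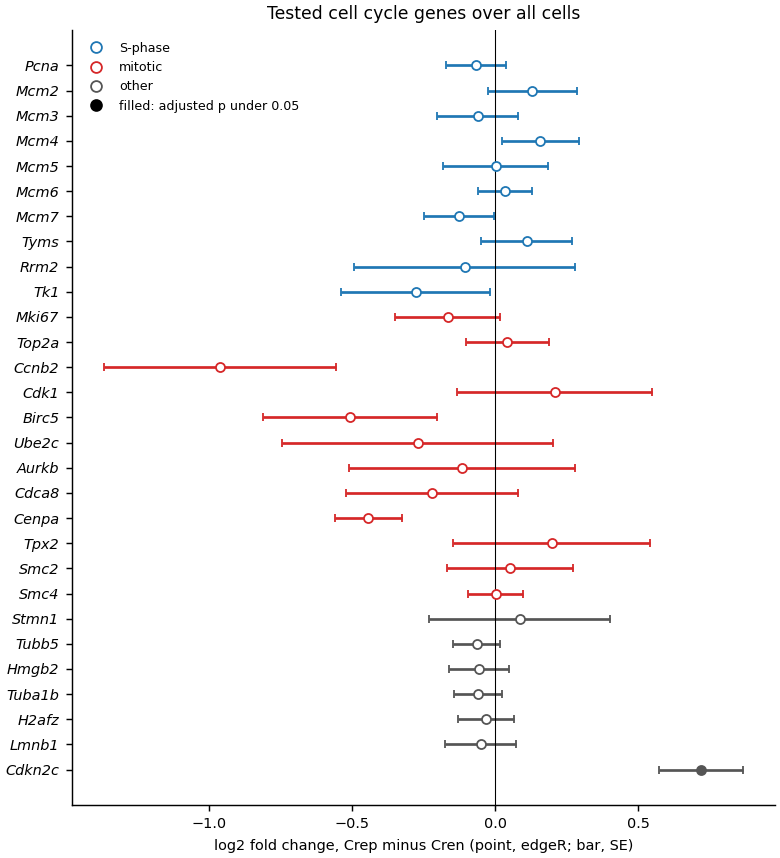
Log2 fold change, Crep minus Cren, of the 29 tested members over all cells (points, edgeR; bars, SE; 4 hashtags per group), coloured by class. Cdkn2c alone is filled as called, at 0.72, and Ccnb2, Birc5 and Cenpa lie farthest to the left without being called.

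Cdkn2c (chr4:109660876-109667189, minus strand, coordinates of GENCODE vM21) stood at 17.8, 17.7, 16.5 and 21.8 CPM in the 4 Cren hashtags and at 25.04, 35.6, 27.4 and 33.1 CPM in the 4 Crep hashtags. All 4 Crep values lay above the highest Cren value. The means were 18.5 ± 2.32 and 30.3 ± 4.89 CPM (SD, n = 4 each), a log2 difference of 0.72 with an SE of 0.145 and an adjusted p of 0.0425 in edgeR. The call is fragile: it was lost in 9 of 19 alternatives, with the difference between 0.36 and 0.80 in all of them. Equal weighting of the fine clusters averaged log2 CPM, with a prior count of 2, over clusters 0, 1, 2, 3, 5 and 6 only. The prior count shrinks differences at low counts, so the resulting value is not on the same measure as 0.72. The call was lost with the clusters weighted in this way, thus without cluster 7 (0.36, adjusted p = 0.602 in limma). It was lost after thinning cells to equal depth (0.64, adjusted p = 0.141 in edgeR) and without fine cluster 7 alone (0.63, adjusted p = 0.0761 in edgeR). It was also lost without Cren 1, Cren 2, Cren 3, Crep 2, Crep 3 or Crep 4, at adjusted p-values from 0.0508 to 0.129.

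Cenpa, the histone H3 variant that marks centromeres, pointed the other way but was not called. Its levels (chr5:30666777-30674830, plus strand) were 39.0, 36.7, 36.1 and 30.3 CPM in Cren and 26.7, 25.9, 28.4 and 23.9 CPM in Crep. The groups did not overlap, at 35.5 ± 3.71 against 26.2 ± 1.83 CPM (SD, n = 4 each). The log2 difference was -0.44 with an SE of 0.117, an unadjusted p of 0.0016 and an adjusted p of 0.107 in edgeR. Across 19 alternatives it lay between -0.51 and -0.23, the latter with the fine clusters weighted equally. That weighting uses a prior count of 2, which shrinks differences at low counts, so -0.23 is not on the same measure as -0.44.

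The other mitotic members at the low end were counted far less often. Ccnb2, cyclin B2, a partner of Cdk1 (chr9:70407692-70421547, minus strand), had 98 UMIs in all and stood at 5.71, 6.22, 5.81 and 1.53 CPM in Cren and 2.28, 2.94, 3.54 and 1.14 CPM in Crep. Cren 4 lay among the Crep values, and the log2 difference of -0.96 (SE 0.405) had an adjusted p of 0.372 in edgeR. With the fine clusters weighted equally it was -0.22, a value that is not on the same measure as -0.96. The prior count of 2 shrinks differences at low counts, and Ccnb2 had 4 to 17 UMIs in each cluster averaged. Birc5, survivin of the chromosomal passenger complex, had 92 UMIs and stood at 4.22 ± 0.132 CPM in Cren and 2.96 ± 0.787 CPM in Crep (SD, n = 4 each). Its groups did not overlap, yet its log2 difference of -0.51 (SE 0.304) had an adjusted p of 0.581 in edgeR. With equally weighted clusters, on the same shrunken measure, the difference was -0.14. Cdkn2c, Cenpa and Birc5 were the 3 members of 29 whose hashtags did not overlap between the groups, a property of 6.70% of all tested genes.

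**Figure D2:**
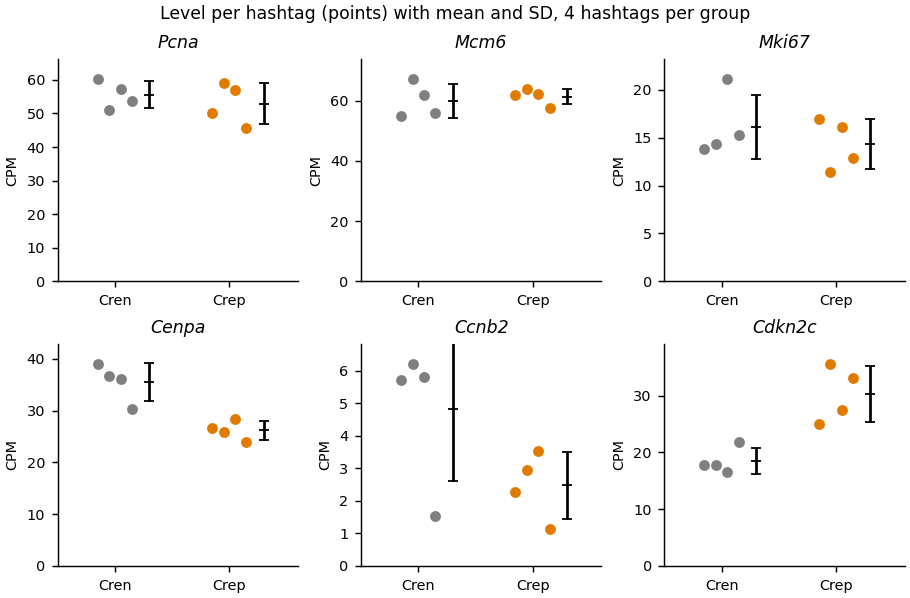
Level in CPM per hashtag (points) of Pcna, Mcm6, Mki67, Cenpa, Ccnb2 and Cdkn2c, with the mean and SD of the 4 hashtags of each group. Cdkn2c is higher in all 4 Crep hashtags, at 25.04 to 35.6 CPM, and Cenpa is lower in all 4, at 23.9 to 28.4 CPM; the other 4 genes overlap.

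The S-phase members lay close to 0. Mcm6, a subunit of the replicative helicase, stood at 60.0 ± 5.70 CPM in Cren and 61.4 ± 2.57 CPM in Crep (SD, n = 4 each), a log2 difference of 0.03 with an SE of 0.0948. Pcna, the sliding clamp of the DNA polymerases, stood at 55.5 ± 4.02 and 53.0 ± 6.24 CPM, a log2 difference of -0.07 with an SE of 0.104. Mcm4 leaned up at 0.16 and Mcm2 at 0.13, whereas Mcm7 leaned down at -0.13, and Mcm3 and Mcm5 were at -0.06 and 0.0015. Among the enzymes of nucleotide supply, thymidylate synthase Tyms was at 0.11, ribonucleotide reductase subunit Rrm2 at -0.11 and thymidine kinase Tk1 at -0.28. The adjusted p of the 10 S-phase members ran from 0.732 to 0.999 in edgeR.

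Of the remaining mitotic members, Mki67, whose product coats mitotic chromosomes and is the usual proliferation marker, stood at 16.1 ± 3.38 CPM in Cren and 14.4 ± 2.58 CPM in Crep (SD, n = 4 each). Top2a, the topoisomerase that untangles sister DNA, stood at 16.2 ± 1.43 and 16.7 ± 1.52 CPM. The condensin subunit Smc4 was at 74.1 ± 7.46 and 74.0 ± 5.63 CPM, and its partner Smc2 at 17.1 ± 5.00 and 17.6 ± 4.34 CPM. The mitotic kinase Cdk1 had a log2 difference of 0.21, the spindle factor Tpx2 one of 0.20 and the passenger complex kinase Aurkb one of -0.12. Cdca8, a further subunit of that complex, was at -0.22, and Ube2c, which loads ubiquitin for the anaphase-promoting complex, was at -0.27. The groups of each of these 9 genes overlapped. The 6 untested members, all at or under 3.02 CPM in the mean of either group, overlapped too. Their means in Cren and Crep were 1.39 and 1.28 CPM for cyclin A2 (Ccna2), 1.86 and 1.15 CPM for cyclin B1 (Ccnb1) and 2.81 and 1.91 CPM for the anaphase activator Cdc20. They were 2.33 and 2.74 CPM for the spindle protein Nusap1, 3.02 and 2.41 CPM for Cdca3 and 1.26 and 1.12 CPM for the kinetochore protein Cenpf.

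The tubulin, chromatin and lamina genes and Stmn1 lay close to 0, and all of them but Stmn1 (384 UMIs) were the most counted members. Their log2 differences were -0.03 for the histone variant H2afz (13902 UMIs), -0.05 for the lamin Lmnb1, -0.06 for each of Hmgb2, Tuba1b and Tubb5, and 0.09 for the tubulin-binding protein Stmn1. The SE was 0.0819 to 0.124 for the first 5 genes and 0.317 for Stmn1, which ran from 5.75 CPM in Cren 4 to 20.3 CPM in Crep 3. Across 19 alternatives the difference of H2afz lay between -0.17 and 0.046.

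Further genes of the cycle were read from 4 lists of other genes, and 0 genes passed in any of them in edgeR or limma-voom. DESeq2 called 2, both cyclin D genes. Over all genes tested the share called was 1.48% by DESeq2 and 0.383% by limma-voom, and 11.15% had an unadjusted p under 0.05 in edgeR. Of 45 other S-phase genes, 32 were tested, 4 had an unadjusted p under 0.05 and the median log2 difference was -0.02. The smallest unadjusted p-values belonged to cyclin E1 (Ccne1, 0.67, adjusted p = 0.283 in edgeR), the histone chaperone Nasp (-0.39, adjusted p = 0.326) and the uracil glycosylase Ung (-0.80, adjusted p = 0.401). Of 45 other mitotic genes measured, 24 were tested, 0 had an unadjusted p under 0.05 and the median was 0.0074. The smallest there were the Cenpa chaperone Hjurp (-0.28, adjusted p = 0.572 in edgeR), Jpt1 (0.16) and Cks2 (-0.20). Among 11 tested genes of entry into the cycle, 3 had an unadjusted p under 0.05 and the median was 0.16. These were cyclin D2 (Ccnd2, 0.57, adjusted p = 0.0632 in edgeR), cyclin D3 (Ccnd3, 0.37, adjusted p = 0.0808) and E2f4 (0.21, adjusted p = 0.42). In both cyclin D genes all 4 Crep hashtags lay above the highest Cren hashtag, as they did for the brake Cdkn2d named below. The groups did not overlap, in either direction, in 6.70% of all tested genes. Ccnd2, which activates the kinases that p18 inhibits, stood at 63.0, 102.6, 84.4 and 81.6 CPM in Cren and 134, 129, 117 and 109 CPM in Crep. Ccnd3 stood at 237.5 ± 30.5 and 307 ± 17.1 CPM (SD, n = 4 each). The adjusted p in DESeq2 was 0.0122 for Ccnd2 and 0.0402 for Ccnd3, and in limma-voom it was 0.0583 and 0.0925. Among 15 tested brakes of the cycle, 4 had an unadjusted p under 0.05 and the median was -0.07. The smallest were the antiproliferative gene Tob2 (-0.58, adjusted p = 0.0759 in edgeR), Cdkn2d, which encodes the p19 inhibitor related to p18 (0.28, adjusted p = 0.163), and Tob1 (-0.41, adjusted p = 0.307).

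The second question was whether S-phase and mitotic transcripts moved apart. The summed level of the 10 S-phase members was nearly the same in both groups. It was 270.1, 282.5, 265.8 and 259.8 CPM in the Cren hashtags and 255.6, 273.5, 284.5 and 275.9 CPM in the Crep hashtags, or 269.6 ± 9.62 and 272.3 ± 12.1 CPM (SD, n = 4 each). The 18 mitotic members summed to 199.8, 199.5, 227.2 and 209.2 CPM in Cren and to 200.6, 176.1, 194.9 and 192.7 CPM in Crep, or 208.9 ± 13.0 and 191.1 ± 10.5 CPM. Of the Crep sums, 3 lay below the lowest Cren sum and the fourth lay within the Cren range. The log2 ratio of the S-phase to the mitotic sum was 0.44, 0.50, 0.23 and 0.31 in Cren and 0.35, 0.63, 0.55 and 0.52 in Crep. The means were 0.37 ± 0.123 and 0.51 ± 0.119 (SD, n = 4 each), a difference of 0.14 that is close to the spread within a group. It was 0.0909 with Hmgb2 and Lmnb1 counted as mitotic, 0.28 as the median over members of log2(CPM + 1), and 0.0953 without Cren 3. The groups overlapped through Crep 1, while the other 3 Crep hashtags lay above the highest Cren value. No test was made on these sums, since the members were chosen with earlier results known. A few genes hold most of each sum: Smc4 gave 36.7% and Cenpa 15.7% of the mitotic UMIs, and Mcm6, Pcna and Mcm4 gave 22.4%, 20.2% and 17.7% of the S-phase UMIs. The mean of Cenpa was 35.5 CPM in Cren and 26.2 CPM in Crep, and that of Smc4 was 74.1 and 74.0 CPM. The mean mitotic sum differed by -17.9 CPM, Crep minus Cren, and Cenpa is part of that sum. The lower mitotic sum in Crep is therefore not a result apart from the lower Cenpa. The mitotic sum was not computed without Cenpa.

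**Figure D3:**
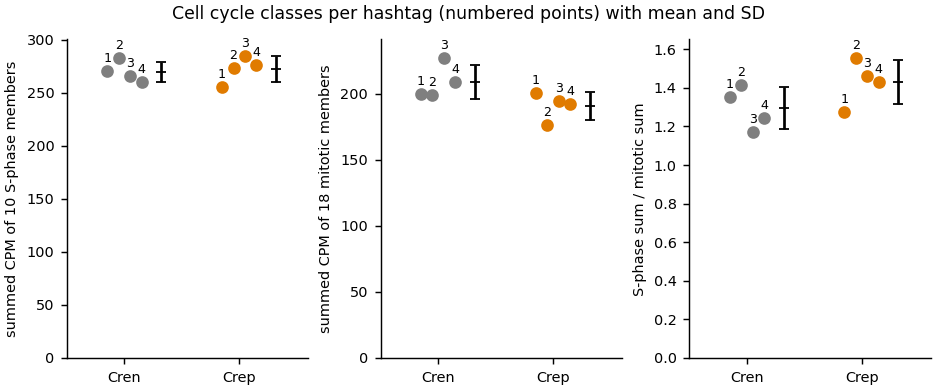
Summed CPM of the S-phase members (left) and of the mitotic members (middle) and the linear ratio of the sums (right), per hashtag, numbered 1 to 4 within each group, with mean and SD. The S-phase sums overlap fully, at 255.6 to 284.5 CPM, and the ratio is above every Cren value in Crep 2, 3 and 4.

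The annotation divides the cells into 12 fine clusters, numbered 0 to 11, of which 9 hold at least 500 cells. The summed S-phase level of the 9 large clusters ran from 231.9 CPM in cluster 5 to 299.3 CPM in cluster 8, and the summed mitotic level from 177.8 CPM in cluster 1 to 233.3 CPM in cluster 8. Over all cells the sums were 270 and 199.1 CPM. Cluster 8, of whose 501 cells 448 came from Cren, thus led both classes among the large clusters, by a small margin. In this paragraph and the next CPM refers to the plain total of the cells of a cluster, and the clusters were made from the same transcripts, so the levels are a description without a test. The 2 classes came apart most in 2 small clusters. Cluster 11 (73 cells) had 512.7 CPM of S-phase and 190.7 CPM of mitotic transcripts, a ratio of 2.69, against 1.36 over all cells. Its Mcm6 was 156 CPM (95% Poisson interval 116 to 206, counting error only) against 60.4 CPM over all cells, its Mcm3 81.3 against 24.4 CPM, and its Tuba1b 675 against 232 CPM. The cells of cluster 11 were the deepest, with a median of 4081 UMIs against 2764.5 over all cells. Only Cren 1, with 28 cells, gave at least 20 of them. Cluster 10 (112 cells) had the lowest ratio, 0.931, and the highest mitotic sum, 313.7 CPM. Its Cenpa was 73.0 CPM (48.1 to 106) and its Ccnb2 24.3 CPM (11.1 to 46.2), against 31.2 and 3.83 CPM over all cells. Of its cells 97.3% came from the hashtag Cren 3, so the cluster and that hashtag cannot be told apart.

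Single members varied more between the large clusters than the sums did. H2afz, a histone variant found at active promoters, stood at 958, 809, 707 and 659 CPM in clusters 4, 6, 8 and 5 and at 371 to 447 CPM in clusters 0, 1, 2, 3 and 7. The hashtags showed the same division: their lowest H2afz value in cluster 4 was 828 CPM (6 hashtags with at least 20 cells), and the highest in cluster 0 was 459.6 CPM (8 hashtags). Stmn1 was 37.6 CPM in cluster 4 and 7.03 CPM in cluster 7. Ube2c was 23.9 CPM in cluster 6 and 23.3 CPM in cluster 5, but 2.93 CPM in cluster 7 (0.951 to 6.84). Cenpa ran from 19.9 CPM in cluster 7 to 48.2 CPM in cluster 8, and Smc2 from 6.39 CPM in cluster 6 to 23.4 CPM in cluster 8. Smc4 was nearly flat, from 66.9 CPM in cluster 0 to 81.5 CPM in cluster 7. Cdkn2c was highest in cluster 7 at 42.2 CPM (33.0 to 53.1) and lowest in cluster 5 at 13.1 CPM (8.91 to 18.6). Cluster 7 took 64.7% of its cells from Crep 4, and the 4 Crep hashtags gave 570 of its 592 cells. Mki67 was 63.4 CPM (31.6 to 113) in cluster 9, whose 119 cells had a median of 1007 UMIs, so this level rests on 11 UMIs.

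**Figure D4:**
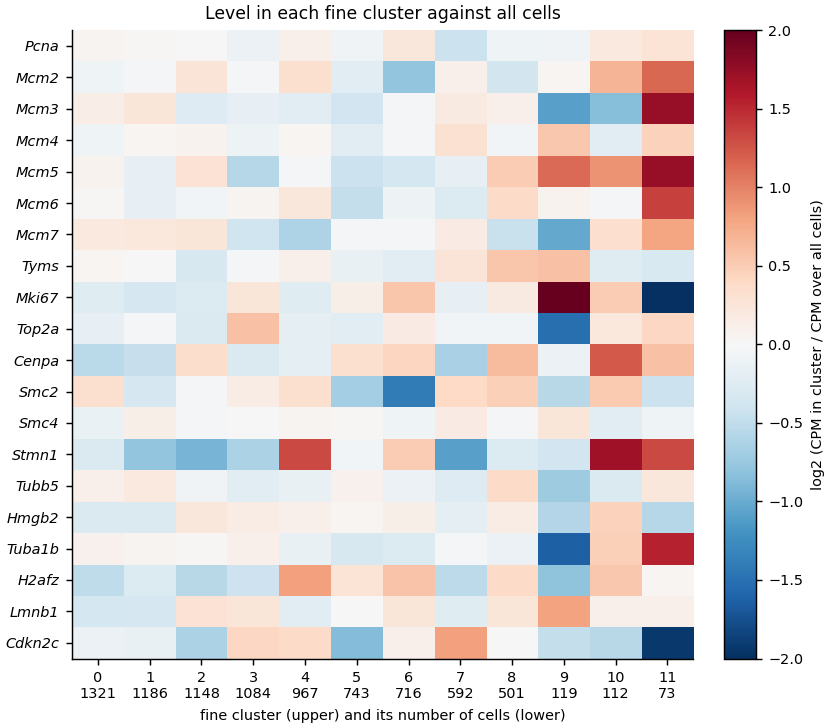
Log2 of a member's CPM in each fine cluster over its CPM in all cells, for the 20 members with at least 300 UMIs; the colour scale stops at a 4-fold difference either way, and cell numbers stand under the cluster numbers. Cluster 11 is high for the Mcm genes and Tuba1b, and cluster 10 for Cenpa and Stmn1, while H2afz is high in clusters 4, 5, 6, 8 and 10.

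Within clusters the groups were compared where at least 3 hashtags of each group had at least 20 cells, which left clusters 0, 1, 2, 3, 5 and 6. Of all genes tested, edgeR called 0.980% in cluster 0, 0.173% in cluster 1, 0.280% in cluster 2, 0.00% in cluster 3, 1.19% in cluster 5 and 0.0269% in cluster 6. Only 10 or 11 members passed the filter in any cluster, and 0 were called by edgeR, DESeq2 or limma-voom in each of the 6. At an unadjusted p under 0.05, edgeR gave 0 members in clusters 0, 1 and 2 and 1 each in clusters 3, 5 and 6, DESeq2 gave 0 in all 6, and limma-voom gave 1 each in clusters 3 and 5. These were H2afz in cluster 3 (log2 difference -0.29, adjusted p = 0.784 in edgeR), Hmgb2 in cluster 5 (-0.34, adjusted p = 0.324) and Pcna in cluster 6 (-0.59, adjusted p = 0.855). The smallest unadjusted p elsewhere belonged to H2afz in cluster 0 (-0.22) and cluster 1 (-0.20) and to Cenpa in cluster 2 (-0.55). Cdkn2c passed the filter in cluster 3 only, at a log2 difference of 0.31 and an adjusted p of 0.972 in edgeR.

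The cells of these clusters are among those that gave the call of Cdkn2c, so its levels in them are a description of where it was counted. CPM in this paragraph refers to the plain total of a hashtag's cells in the cluster. The hashtags overlapped in Cdkn2c between the groups in all 6 clusters. The means in Cren and Crep were 18.6 ± 4.93 and 31.7 ± 15.6 CPM in cluster 1 (SD, n = 4 each), 9.47 ± 4.39 (n = 4) and 19.5 ± 8.82 CPM (n = 3) in cluster 5, and 14.2 ± 6.88 and 18.5 ± 7.91 CPM in cluster 2. In clusters 0, 2, 3 and 6 the means differed by 2.79, 4.31, 2.25 and 2.39 CPM, less than the SD of either group. Cdkn2c had the higher mean in Crep in 6 of 6 clusters. Cenpa had the lower mean in Crep in 4 of 6 clusters. It stood at 42.4 ± 9.81 and 29.9 ± 7.15 CPM in cluster 2, but at 20.7 ± 5.42 and 21.0 ± 6.74 CPM in cluster 1 (SD, n = 4 each). The mitotic sum had the lower mean in Crep in 5 of 6 clusters and the S-phase sum the higher mean in 4 of 6. The log2 ratio of the S-phase to the mitotic sum had the higher mean in Crep in 3 of 6 clusters, by 0.56, 0.35 and 0.34 in clusters 0, 1 and 2. It differed by -0.01, -0.0031 and -0.0008 in clusters 3, 5 and 6. The hashtags overlapped in all 6.

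Members were then counted cell by cell, after each cell was thinned to 2000 UMIs, which left 6639 cells and left out 1923 shallower ones. At least 2 different S-phase members were found in 8.80% of cells and at least 2 mitotic members in 4.41%, with both in 0.557% (37 cells). Per hashtag the S-phase share was 7.44% to 10.7% in Cren and 7.46% to 9.59% in Crep, with means of 8.71 ± 1.52% and 8.71 ± 0.901% (SD, n = 4 each). The mitotic share was 4.52%, 4.29%, 5.80% and 4.86% in Cren and 3.86%, 2.95%, 3.87% and 5.36% in Crep, with means of 4.87 ± 0.663% and 4.01 ± 0.999%. Again 3 Crep hashtags lay below the lowest Cren value and Crep 4 lay within the Cren range. The 95% Wilson intervals of single hashtags, for example 2.02% to 4.28% in Crep 2 and 3.13% to 5.86% in Cren 2, overlapped too, and they cover counting error only. The share with both was 0.661 ± 0.207% in Cren and 0.439 ± 0.150% in Crep, with 2 to 8 cells per hashtag. In the unthinned cells that share was 2.84%, 2.72%, 3.01% and 2.78% in Cren and 1.96%, 2.11%, 2.60% and 1.43% in Crep. The groups did not overlap, but depth differs between cells there. The other unthinned shares overlapped, at 15.4 ± 1.61% in Cren and 15.5 ± 1.78% in Crep for S-phase members. For mitotic members they were 10.1 ± 1.25% and 8.95 ± 1.07%. Only Crep 4, at 7.36%, lay below the lowest unthinned mitotic share in Cren, 8.78%.

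The overlap of the 2 classes was then counted in cells pooled over the 8 hashtags. At least 2 S-phase members were found in 12.6% of the 293 cells with at least 2 mitotic members (95% Wilson interval 9.30% to 16.9%). The share was 8.57% of the 1739 cells with 1 mitotic member (7.34% to 9.98%) and 8.64% of the 4607 cells with none (7.86% to 9.49%). The interval of the first share overlaps both others, and no test was made. The first set of cells had a median of 3463 UMIs before thinning, against 3102 and 3086. Each member was also counted in cells with a UMI of at least 3 other S-phase or mitotic members and in the remaining cells. Stmn1, which is in neither class, was found in 8.99% of 356 such cells (6.44% to 12.4%) and in 2.12% of the rest, a ratio of 4.25. The ratio was 3.91 for Birc5 (7 cells against 32), 3.20 for Cdca8, 2.48 for Mcm2, 2.14 for Mcm3 and 1.90 for Mcm5. It was 1.55 for Mki67, 1.20 for Pcna and for Mcm6, 1.16 for Smc4, 1.20 for Cdkn2c, 1.04 for Tubb5 and 0.998 for Tuba1b. The ratio varied among genes counted about equally often: Tyms and Top2a, with about as many UMIs as Mcm2, had ratios of 1.03 and 1.12. The most counted members, H2afz, Hmgb2, Tubb5 and Tuba1b, had ratios from 0.998 to 1.12. A gene found in a large share of all cells, such as Tubb5 at 43.2% of the remaining cells, can reach only a limited ratio. Rrm2, Ccnb1 and Tpx2 had ratios of 0.359, 0.809 and 0.871, which rest on 1, 1 and 2 such cells. Aurkb and Nusap1 were found in 0 of 349 and 0 of 351 such cells (upper Wilson limits 1.09% and 1.08%). The largest ratio, 5.598 for Ccna2, rests on 5 cells.

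**Figure D5:**
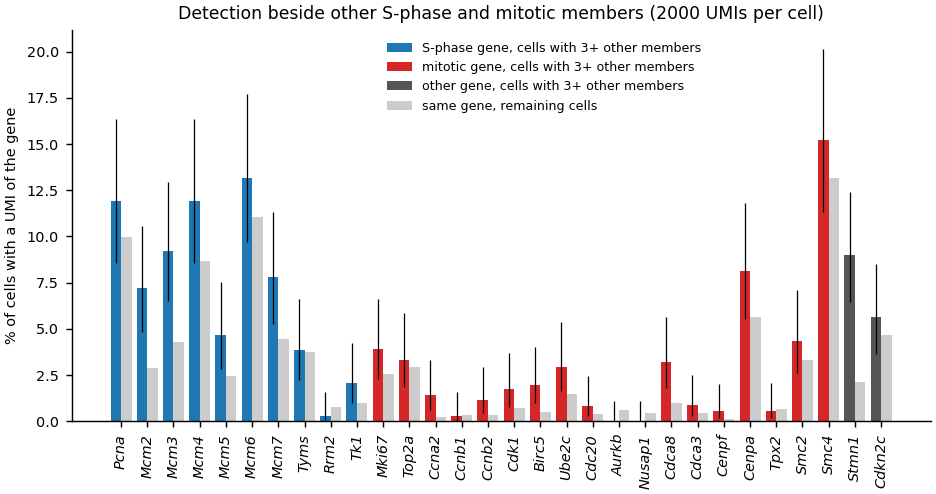
Share of cells, thinned to 2000 UMIs, with a UMI of each S-phase or mitotic member, Stmn1 and Cdkn2c, in cells with at least 3 other members (coloured; bars, 95% Wilson interval) and in the remaining cells (grey). Stmn1, Mcm2 and Mcm3 are found more often beside other members, whereas Pcna, Mcm6, Smc4 and Cdkn2c are found at similar shares in both.

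The cells richest in these transcripts were few. Of the 8562 unthinned cells, 28 (0.327%) had a UMI of at least 8 of the 28 S-phase and mitotic members. They had a median of 6688.5 UMIs against 2764.5 over all cells, and a median of 6 S-phase and 3 mitotic members. Mcm6 was found in 25 of them, Mcm3 in 23, Mcm4 in 22 and Mcm2 in 20, and Mki67 and Birc5 in 6 each. The cells were chosen by these same members, so the counts do not compare the classes. Over all cells Mcm6 had 1548 UMIs, Mki67 388 and Birc5 92. A UMI of Ccnb1, Ccna2, Nusap1 or Cenpf was found in 0 of the 28. Cdkn2c was found in 2 of them and Stmn1 in 11. The cells lay in 11 of the 12 clusters, 1 to 5 in each, with 17 from Cren and 11 from Crep. Among the Cren hashtags, Cren 2 gave 8 and Cren 1 gave 1. A further 26 cells had exactly 7 members, so the limit of 8 falls on a continuous slope. The cells were filtered before deposit, and whether cycle scores took part in that filter or in clustering is not given in the sources used here.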

How the data were processed

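The authors deposited a table of raw UMI counts for 12798 genes in 8562 cells, with an annotation that gives each cell's hashtag, group and fine cluster. The submitters' processing notes name mm10 as the build and list Seurat 4.3.0, Cell Ranger 7.0.0 and bcl2fastq 2.20.0.422. Mitochondrial and ribosomal shares are percent values deposited by the authors. The members, the gene lists and the tests were chosen with earlier results of these data known. Members and Bcl6 are named in full, and each further list by its 3 tested genes with the smallest unadjusted p.

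Counts were summed per hashtag (4 per group; 2635241 to 4201265 UMIs) and compared by the robust quasi-likelihood test of edgeR 4.0.16, after filterByExpr and TMM scaling, with Benjamini-Hochberg adjustment at 0.05 over all genes tested. The same fit was made within fine clusters. DESeq2 1.42.0 and limma 3.58.1 were alternatives, and the fits were tested on simulated data. Whether a hashtag stands for 1 mouse is not given in the sources used here, and p-values measure the spread between hashtags, which may be technical. Shares have 95% Wilson intervals. In all, 115 cells were not given their hashtag by both classifiers, no doublet caller was run, and no cell was removed. Thinning was drawn once with a fixed seed. Pairing of equally numbered hashtags was checked by the correlation of their deviations from the group means.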

Additional observations from a re-analysis of the deposited data

Results flagged for a closer look

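Of 106 groups of 4 hashtags checked, 4 held a hashtag set apart from the other 3 by more than Dixon's 95% critical value. Chance alone flags about 1 in 20 such groups. Ccnb2 was 1.53 CPM in Cren 4, against 5.71 to 6.22 CPM in the other Cren hashtags. Cdca8 was 8.87 CPM in Cren 3 and Cdca3 was 3.98 CPM in the same hashtag. That hashtag also gave 97.3% of the cells of fine cluster 10, where Cdca8 was 21.6 CPM of the plain total. Tob1, among the brakes of the cycle, was 25.7 CPM in Cren 4. The median ribosomal share of UMIs per cell was 23.7% in Cren 4 and 17.8% to 19.6% in the other 7 hashtags; its part in these values was not tested.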

How the results depend on the processing

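Over all cells edgeR called 59 genes and 1 member, Cdkn2c. DESeq2 called 143 genes, limma-voom 37, equally weighted clusters 26, thinned cells 39, and the sums without fine cluster 7 gave 26. Equal weighting used clusters 0, 1, 2, 3, 5 and 6 only, and log2 CPM with a prior count of 2. The count ran from 14 to 121 when 1 hashtag was left out, the latter without Cren 3. Members called fell to 0 with equally weighted clusters, with thinned cells and without cluster 7, and were 0 or 1 when 1 hashtag was left out. Leaving out clusters 7 or 9 was chosen after seeing the data. Hashtags share a number between the groups without a stated pairing, and the correlations of same-numbered hashtags were -0.0429, 0.144, 0.182 and 0.125. With the hashtag number as a replicate block edgeR called 103 genes and 1 member, Cdkn2c, and Ccnd3 passed (adjusted p = 0.04). Within clusters 0 members were called under every alternative run, while the genes called ran from 18 to 103 in cluster 0, 2 to 25 in cluster 1, 6 to 55 in cluster 2, 0 to 15 in cluster 3, 20 to 115 in cluster 5 and 0 to 12 in cluster 6. The difference in the log2 S-phase to mitotic ratio was 0.28 as the median over members of log2(CPM + 1), 0.21 without the most counted member of each class, 0.0909 with Hmgb2 and Lmnb1 as mitotic, and 0.0953 to 0.197 when 1 hashtag was left out. With at least 3 members in place of 2, the Crep to Cren ratio of cell shares was 0.805 for S-phase and 0 for both classes together, with 2 cells in Cren and 0 in Crep. The cause was not tested for any of these.

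The sign of the log2 difference changed somewhere for 16 of the 29 tested members, none of them called. With equally weighted clusters Mcm3 was 0.035, Tyms -0.13, Top2a -0.12, Cdk1 -0.051, Smc2 -0.12, Smc4 -0.10 and Stmn1 -0.20. With thinned cells Mcm6 was -0.0002, Mcm7 0.06, Smc2 -0.013, Smc4 -0.087, Stmn1 -0.13 and Hmgb2 0.036. With limma-voom Mcm5 was -0.0028, and without TMM factors Mcm5 was -0.0043 and Smc4 -0.0022. Without cluster 7 Cdk1 was -0.012, Smc4 -0.034 and H2afz 0.046. Smc4 was also -0.0105 with cells that both classifiers gave their hashtag, -0.0073 without cluster 9 and -0.0062 without cluster 10. Leaving out 1 hashtag at a time, the ranges were -0.14 to 0.039 for Mcm3, -0.10 to 0.11 for Mcm5, -0.0127 to 0.092 for Mcm6, -0.0134 to 0.092 for Top2a, -0.34 to 0.15 for Rrm2, -0.55 to 0.045 for Ube2c and -0.32 to 0.21 for Aurkb. They were -0.077 to 0.19 for Smc2, -0.048 to 0.059 for Smc4, -0.15 to 0.24 for Stmn1, -0.15 to 0.017 for Hmgb2, -0.12 to 0.029 for H2afz and -0.15 to 0.047 for Lmnb1.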
